A study of Mus musculus with 2 samples.

Results

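Globin and other red blood cell transcripts were followed in long-read RNA sequencing of the mouse adrenal gland. The 6 genes were chosen by name: the alpha globins Hba-a1 and Hba-a2, the beta globins Hbb-bs and Hbb-bt, the anion exchanger gene Slc4a1 and the bisphosphoglycerate mutase gene Bpgm. All deposited transcript models under these names were used, whatever their class. Of the 6 genes, 5 had reads, out of 15683 annotated genes with at least 1 read in either library. In each library 21 transcript models carried one of the names, of 63014 models in replicate 1 and 67079 in replicate 2. The tissue was adrenal gland from B6CASTF1/J males at 36 days of age. These mice are hybrids of the inbred strains C57BL/6J and CAST/EiJ, the labels name no treatment, and the 2 libraries form 1 group. No condition is therefore compared with another, and each test below compares these 2 libraries or compares genes within a library.

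Haemoglobin, the oxygen carrier of red cells, is built from alpha and beta chains in equal number, each holding a haem. Red cells lose their nucleus before they enter the blood, and the youngest ones, the reticulocytes, still hold globin mRNA for a short time. Slc4a1 encodes band 3, which exchanges chloride for bicarbonate across the red cell membrane and anchors the membrane skeleton, and Bpgm makes the bisphosphoglycerate that lowers the oxygen affinity of haemoglobin. A solid organ collected with its blood brings such transcripts along, and the labels do not say whether blood was flushed from the glands.

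The globins come in pairs of genes with near-identical coding sequence, which bears on how reads can be split within a pair. In the annotated C57BL/6J transcripts, the 429 coding bases of Hba-a1 and Hba-a2 differ at 1 base, C381T, counted from the A of the start codon, with the base of Hba-a1 first. This is base 3 of codon 127, in exon 3. The lines below give the coding strand around that base, in capitals, from the GENCODE M21 transcripts on mm10. They are shown because they hold the only coding base that differs between the copies.
Hba-a1, chr11:32284323-32284363, plus strand: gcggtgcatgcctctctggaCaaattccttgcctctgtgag
Hba-a2, chr11:32297140-32297180, plus strand: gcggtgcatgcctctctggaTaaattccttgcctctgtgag

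Over the 538 transcript bases that the annotation gives to both alpha genes (35 before the start codon, 429 coding and 74 after the stop codon) this was the sole difference. The annotated 5′ part of the leading Hba-a1 transcript is 161 bases longer than that of Hba-a2, and the 3′ end of Hba-a2 runs on beyond that of Hba-a1, at 90 against 74 bases after the stop codon.

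The 444 coding bases of Hbb-bs and Hbb-bt also differ at 1 base, C417T with the base of Hbb-bs first, which is base 3 of codon 139 in exon 3. It is in capitals in the 2 lines below, written along the transcript.
Hbb-bs, chr7:103826672-103826712, minus strand: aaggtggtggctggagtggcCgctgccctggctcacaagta
Hbb-bt, chr7:103812663-103812703, minus strand: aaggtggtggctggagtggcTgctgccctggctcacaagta

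Outside the coding part the beta copies are easier to tell apart. Before the start codon 9 of 53 shared bases differ, and the 3′ untranslated regions (131 and 132 bases) have 94 of 134 aligned positions in common, or 70.1%. The annotation thus leaves 1 distinguishing base over the shared length of the alpha copies and many for a beta read that reaches the 3′ end. The mice also carry CAST/EiJ chromosomes, whose globin gene copies and bases at these positions were not analysed here. The authors' treatment of reads that fit both copies is not described in the labels or file headers.

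The start regions of the globin genes were compared too, because members of both pairs stood among the abundant genes. RefSeq start regions (GRCm38.p6, windows of 300 bases that reach mostly upstream of the start) were found for 5 of the 6 genes. The windows of Hba-a1 and Hba-a2 were identical over all 297 bases compared. Those of Hbb-bs and Hbb-bt had 72.4% identical positions in a global alignment of 308 columns. The 110 bases before the start of 1 gene of each pair are printed here, with the letters CCAAT, CCACACCC and TATAA in capitals.
Hba-a2, chr11:32296382-32296491, plus strand: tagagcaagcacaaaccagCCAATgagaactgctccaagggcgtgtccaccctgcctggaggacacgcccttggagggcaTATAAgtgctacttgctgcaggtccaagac
Hbb-bs, chr7:103827929-103828038, minus strand: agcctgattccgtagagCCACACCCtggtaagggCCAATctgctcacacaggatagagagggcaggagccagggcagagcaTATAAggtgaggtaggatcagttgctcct

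Both strands of each window were searched. CCAAT was present in all 5 windows, and 37.4% of the 32851 RefSeq windows of the same length hold it. It began 88 bases before the start in Hba-a1, 91 in Hba-a2, 76 in Hbb-bs and 75 in Hbb-bt, the last of which also held it on the other strand. In Bpgm it began 183 and 76 bases before the start, with a further match on the other strand. TATAA began 27, 30, 29 and 28 bases before the start in Hba-a1, Hba-a2, Hbb-bs and Hbb-bt, and 24.9% of all windows hold it. The longer TATAAA, which contains it, was found in Hbb-bt alone of the 5 and in 13.6% of all windows. CCACACCC was found in Hbb-bs alone, 93 bases before the start (3.56% of all windows), and so was AGATAA, at 210 bases (11.2%). Of these motifs the 4 globin genes shared CCAAT and TATAA, while Bpgm had CCAAT only, in 1 case at the same distance as Hbb-bs. These matches describe letters and do not show binding.

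The libraries held 452489 endogenous reads in replicate 1 and 463210 in replicate 2. Levels are given as CPM, the count scaled to a fixed total of endogenous reads, so that 1 read was worth 2.21 and 2.16 CPM. For a gene with no read a fixed limit of 3 counts was set, at 6.63 and 6.48 CPM. Intervals are 95% intervals for counting error only, and reads without molecular identifiers are not independent molecules. Fisher's exact test on 8135 genes with at least 10 reads called 257 of them, or 3.16%, different between the libraries. A call needed a 2-fold difference or more and an adjusted p below 0.05. Markers of neighbouring tissues stood apart in replicate 2. Of 16 pancreas genes 2 had reads in replicate 1 and 16 in replicate 2, and they summed to 79.6 and 8616 CPM, with Clps, a cofactor of pancreatic lipase, at 0 and 542 reads. Liver genes summed to 13.3 and 620 CPM (2 and 10 of 10 with reads, Alb at 0 and 42 reads) and brown fat genes to 2442 and 5356 CPM (5 of 6 with reads in each). These lists were written after the values had been seen.

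The 4 globin genes together gave 2155 reads in replicate 1 and 1856 in replicate 2, or 4763 and 4007 CPM (4385 ± 534 CPM, SD, n = 2). This was 0.476% of endogenous reads (Wilson interval 0.457% to 0.497%) in replicate 1 and 0.401% (0.383% to 0.419%) in replicate 2. Globin reads were thus a minor part of both libraries, and the intervals of the 2 libraries did not overlap. The level in replicate 2 was 0.841 times that in replicate 1 (exact conditional interval 0.790 to 0.896). With the listed pancreas, liver and brown fat genes left out of the totals it was 0.852 times, at 4775 and 4066 CPM. Genes outside those lists stayed in the totals, Amy2a2 (0 and 288 reads) among them. Fewer red cells in the tissue and less globin RNA per cell cannot be told apart in such bulk libraries.

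Hba-a1 (ENSMUSG00000069919.7, chr11:32283511-32284465, plus strand), which encodes the adult alpha chain, had 1190 reads in replicate 1 and 961 in replicate 2. These are 2630 CPM (2483 to 2784) and 2075 CPM (1946 to 2210), which put the gene at rank 25 and 30 of all genes by reads. It was the most abundant of the 6 genes in both libraries. Hba-a2 (ENSMUSG00000069917.7, chr11:32296489-32297298, plus strand), the second copy of the same chain, had 294 and 253 reads, or 650 CPM (578 to 728) and 546 CPM (481 to 618), at rank 184 and 271. As assigned by the authors, Hba-a1 was above Hba-a2 in each library without overlap.

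Hbb-bs (ENSMUSG00000052305.6, chr7:103826534-103828096, minus strand), a gene of the adult beta chain, had 546 and 529 reads, or 1207 CPM (1108 to 1312) and 1142 CPM (1047 to 1244), at rank 78 and 95. Hbb-bt (ENSMUSG00000073940.3, chr7:103812524-103813996, minus strand), its neighbour and near copy, had 125 and 113 reads, or 276 CPM (230 to 329) and 244 CPM (201 to 293), at rank 631 and 709. The beta pair thus repeated the order of the alpha pair, with 1 copy well above the other in both libraries.

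Bpgm (ENSMUSG00000038871.5, chr6:34476207-34505613, plus strand) had 15 reads in each library, or 33.2 CPM (18.6 to 54.7) and 32.4 CPM (18.1 to 53.4), at rank 4559 and 4512. It was the lowest of the 5 genes with reads. Slc4a1 (ENSMUSG00000006574.15, chr11:102348824-102366203, minus strand) had no read of any class in either library, which allows up to 6.63 and 6.48 CPM.

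**Figure D1:**
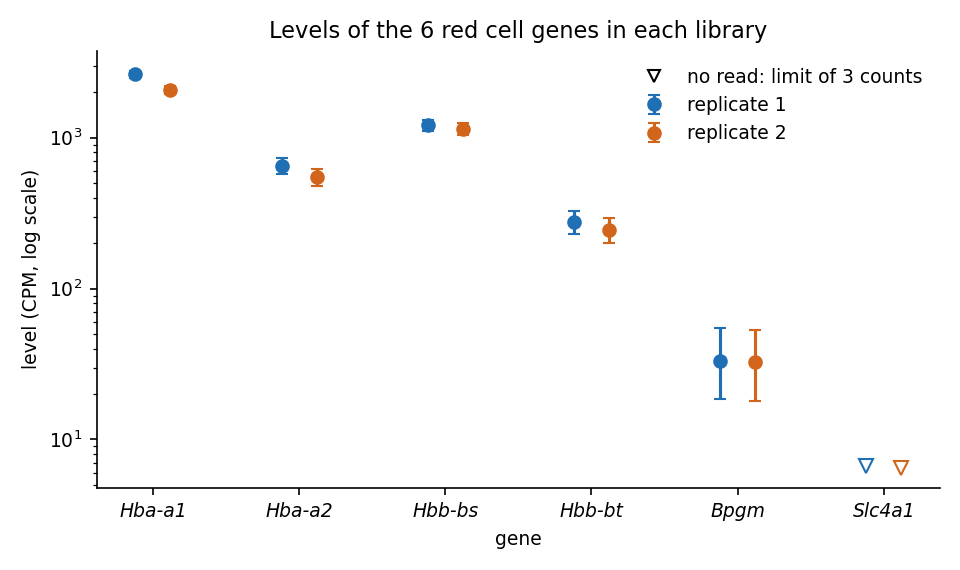
Level of each gene in CPM, on a log axis, in replicate 1 (blue) and replicate 2 (orange), with 95% Poisson intervals as bars. Hba-a1 leads at 2630 and 2075 CPM, Bpgm stands at 33.2 and 32.4 CPM, and Slc4a1, with no read, is drawn as open triangles at the limit of 3 counts.

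By reads the order was Hba-a1, Hbb-bs, Hba-a2, Hbb-bt, Bpgm and Slc4a1 in both libraries, and no neighbours in that order overlapped between the libraries. Hba-a1 had 2.18 times the reads of Hbb-bs in replicate 1 (exact conditional interval 1.97 to 2.42) and 1.82 times (1.63 to 2.02) in replicate 2. Hbb-bs had 1.86 times (1.61 to 2.15) and 2.09 times (1.80 to 2.44) those of Hba-a2. Hba-a2 had 2.35 times (1.90 to 2.92) and 2.24 times (1.79 to 2.82) those of Hbb-bt, which in turn had 8.33 times (4.86 to 15.3) and 7.53 times (4.38 to 13.9) those of Bpgm. A long read stands for 1 cDNA, so these counts were not divided by length. Per kilobase of the leading transcript the order was the same, at 3762 and 2968 CPM per kilobase for Hba-a1, 1921 and 1819 for Hbb-bs, 1173 and 986 for Hba-a2, 393 and 347 for Hbb-bt and 14.9 and 14.6 for Bpgm. Length therefore did not change the order of the levels.

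Alpha and beta RNA were compared by the sums of each pair, which do not depend on how reads were split between copies. Any reads left out because they fit both copies would be missing from the sums. The alpha genes gave 1484 and 1214 reads, or 3280 and 2621 CPM, and the beta genes 671 and 642 reads, or 1483 and 1386 CPM. The alpha sum in replicate 2 was 0.799 times that in replicate 1 (0.740 to 0.863), and the beta sum 0.935 times (0.837 to 1.04). There were 2.21 alpha reads per beta read in replicate 1 (exact conditional interval 2.02 to 2.43) and 1.89 (1.72 to 2.08) in replicate 2, or 2.05 ± 0.227 (SD, n = 2). Alpha reads outnumbered beta reads in both libraries. These are counts of RNA reads and do not measure the chains, whose balance was not tested. The odds of an alpha read in replicate 2 were 0.855 times those in replicate 1 (0.748 to 0.978). Fisher's exact test gave p = 0.0217, which did not pass after adjustment over the 3 ratio and share tests (adjusted p = 0.0652).

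Within the pairs the leading copies took like shares. Hba-a1 took 80.2% of alpha reads in replicate 1 (Wilson interval 78.1% to 82.1%) and 79.2% (76.8% to 81.4%) in replicate 2. Hbb-bs took 81.4% of beta reads (78.2% to 84.1%) and 82.4% (79.3% to 85.1%). Neither share differed between the libraries past the threshold: by Fisher's exact test the adjusted p was 0.667 for both, and the odds ratios of replicate 2 over replicate 1 were 0.938 (0.774 to 1.14) and 1.07 (0.801 to 1.43). Both shares are those of the authors' assignment to the annotated copies, and the alpha copies differ at 1 annotated base over their shared length.

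**Figure D2:**
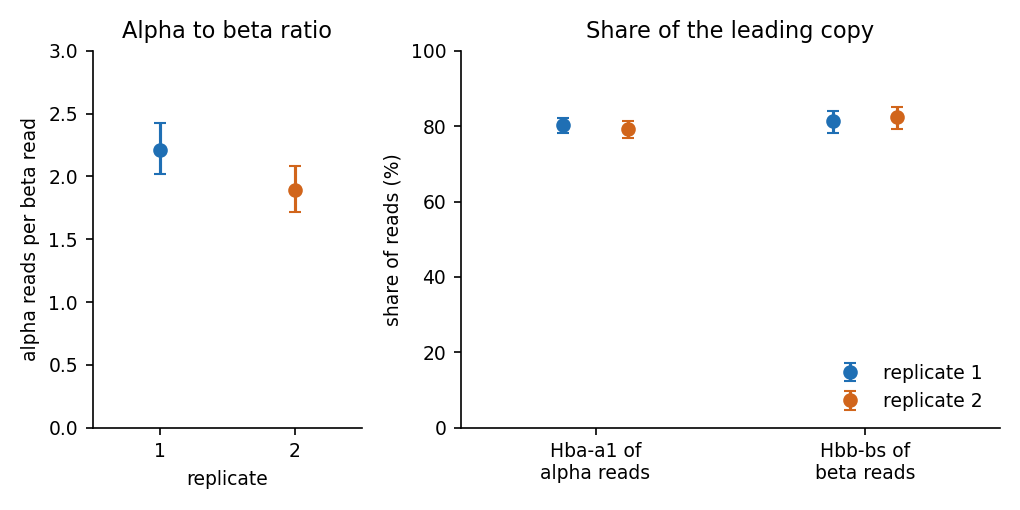
Left, alpha reads per beta read in each library with exact conditional 95% intervals, at 2.21 and 1.89. Right, the share of alpha reads assigned to Hba-a1 and of beta reads assigned to Hbb-bs in percent with Wilson 95% intervals, all 4 between 79.2% and 82.4%.

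Among the 5 genes tested between the libraries none was called, against 3.16% of all tested genes. All 4 globins had lower values in replicate 2, with log2 ratios of replicate 2 over replicate 1 (1 CPM added) of -0.34 for Hba-a1, -0.25 for Hba-a2, -0.18 for Hbb-bt and -0.08 for Hbb-bs, and the median over all tested genes was -0.03. Hba-a1 was 1.27-fold higher in replicate 1 (exact conditional interval 1.16 to 1.38), with an adjusted p of 2.01e-06 by Fisher's exact test, so it passed on p but not on size. Ignoring size, 6.45% of all tested genes passed on p, and 3.34% passed and were higher in replicate 1. These shares cover all genes with at least 10 reads and were not matched to the read count of Hba-a1. Small differences pass on p more readily at high counts. The adjusted p of the other members by the same test was 0.275 for Hba-a2, 0.763 for Hbb-bt, 0.776 for Hbb-bs and 1 for Bpgm, and unadjusted p was under 0.05 for Hba-a1 and Hba-a2.

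Genes with short transcripts moved the other way. The 894 tested genes whose leading transcript was at most 1000 bases long had a median log2 ratio of 0.30 (quartiles -0.03 and 0.60), and 654 of them (73.2%) were higher in replicate 2. The leading transcripts of the globins are 554 to 703 bases long, yet all 4 globins lay below the lower quartile of these genes. The part that transcript length played in the globin values was not tested.

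**Figure D3:**
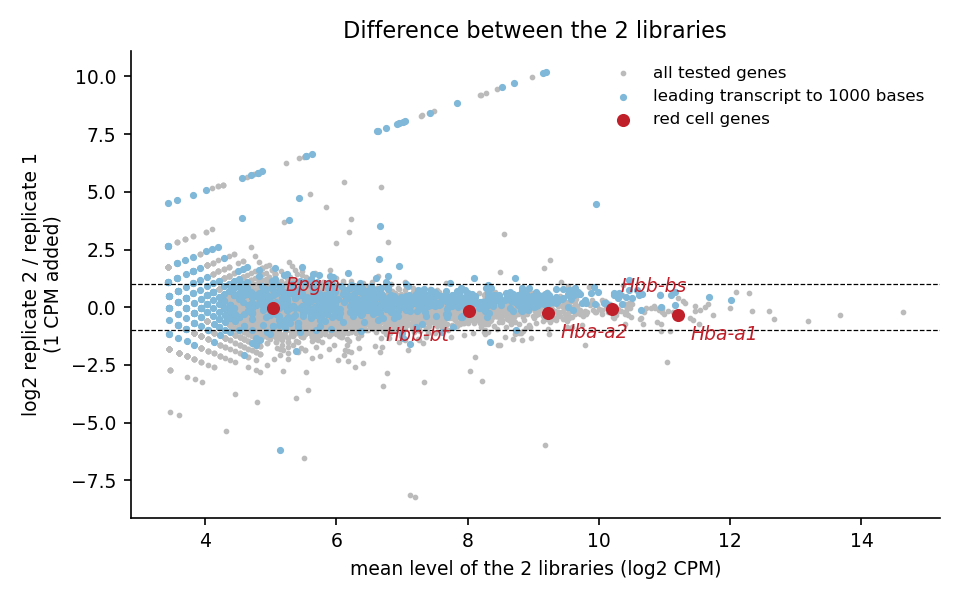
Log2 ratio of replicate 2 over replicate 1 (1 CPM added) against the mean level of the 2 libraries (log2 CPM) for the 8135 tested genes, with genes of short leading transcripts in blue, the 5 tested red cell genes in red and 2-fold differences as dashed lines. The globins lie below 0, at -0.08 to -0.34, inside the dashed lines, while the short genes have a median of 0.30.

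Most globin reads followed a complete annotated splice pattern. TALON, the program whose classes the authors used, calls a read Known when it follows an annotated transcript, ISM (incomplete splice match) when it follows part of one, NIC or NNC when it joins annotated or unannotated splice sites in a new way, and Genomic when it overlaps a gene without its splicing. Known reads were 97.1% of globin reads in replicate 1 (Wilson interval 96.3% to 97.7%) and 96.6% (95.6% to 97.3%) in replicate 2. Over all other annotated genes they were 78.9% and 77.9%, and the difference passed Fisher's exact test in each library (adjusted p = 1.17e-134 and 2.86e-116). Against 1823 other genes with a leading transcript of at most 1000 bases, at 90.3% and 88.9%, it was smaller and also passed (adjusted p = 8.96e-34 and 9.33e-33). The globin share was thus higher by 18.2 and 18.6 percentage points against all other genes, and by 6.79 and 7.64 points against the short ones. Reads were the unit of these tests, and reads of 1 gene share their source.

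By gene, Known reads were 98.1% and 97.4% of Hba-a1, 97.3% and 96.8% of Hba-a2, 96.0% and 95.1% of Hbb-bs and 92.0% and 95.6% of Hbb-bt. The Wilson intervals of the 4 genes overlapped in replicate 2. In replicate 1 that of Hbb-bt (85.9% to 95.6%) lay below that of Hba-a1 (97.1% to 98.7%). Of the 15 Bpgm reads, 12 were Known in replicate 1 and 13 in replicate 2. The rest were Genomic.

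**Figure D4:**
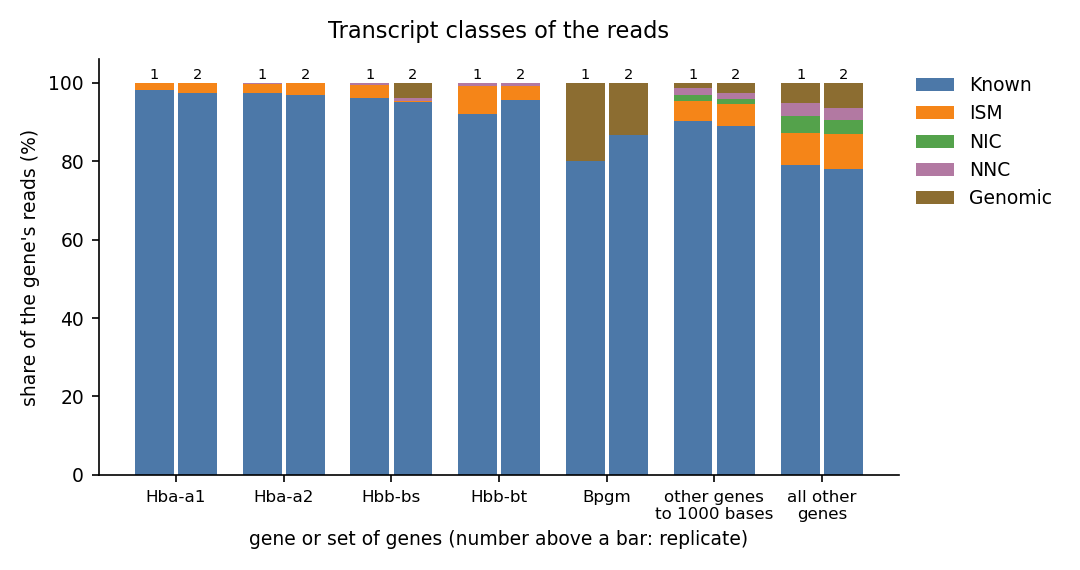
Share of reads in each TALON class, in percent, for the 5 genes with reads and for the other genes with leading transcripts of at most 1000 bases and all other genes, with replicate 1 and 2 side by side. Known reads make up 92.0% to 98.1% in the globins, 90.3% and 88.9% in the short genes and 78.9% and 77.9% in all others, and the Hbb-bs remainder is mostly Genomic in replicate 2 and mostly ISM in replicate 1.

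A single 3-exon transcript carried most reads of each globin gene. It had 1156 and 925 reads in Hba-a1 (699 bases), 282 and 243 in Hba-a2 (554 bases), 516 and 490 in Hbb-bs (628 bases) and 115 and 108 in Hbb-bt (703 bases). Annotated 2-exon forms that begin inside the first intron and lack exon 1 were rare, with 11 reads in each library for Hba-a1, 4 and 2 for Hba-a2, and 8 and 13 for Hbb-bs. These forms count as Known. Bpgm had reads of 1 spliced form, of 3 exons and 2220 bases, at 12 and 13.

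The largest group outside the Known class were reads of the last exon alone. Hba-a1 had 21 and 24 of them, Hba-a2 6 and 7, and Hbb-bt 7 and 3, all classed as ISM. For Hbb-bs the same kind of read was classed differently in the 2 tables: 18 reads in an ISM model of the whole last exon (260 bases, chr7:103826534-103826793) in replicate 1, and 21 reads in a Genomic model of its 3′ part (195 bases, chr7:103826534-103826728) in replicate 2. Counted together whatever the class, single-exon reads outside the Known class were 2.41% and 2.96% of globin reads, against 6.54% and 8.27% over all other genes and 2.52% and 4.13% over the short ones. The change of class in Hbb-bs was thus not a change in how many such reads there were. Bpgm had 3 and 2 reads of this kind, all within its last exon.

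Reads that kept an intron were few. Intron 2 was retained in 2 and 1 reads of Hba-a1 and in 1 and 1 of Hba-a2. Hbb-bt had 2 such reads in replicate 1, in which exon 1, intron 1 and exon 2 were continuous. Hbb-bs had 1 partly spliced read in replicate 2 that began inside intron 1.

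Unannotated splice sites were seen in 1 or 2 reads each. Both beta genes end exon 1 with the same 24 bases, given here with the last 4 in capitals because reads with shifted ends differ by 4 bases.
Hbb-bs, chr7:103827784-103827807, minus strand: agttggtggtgaggccctggGCAG
Hbb-bt, chr7:103813778-103813801, minus strand: agttggtggtgaggccctggGCAG

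In Hbb-bs, 2 reads of replicate 1 and 1 read of replicate 2 left exon 1 at 4 bases further into the intron (at 103827780 in place of 103827784), against 516 and 490 reads at the annotated end in the 3-exon form. Hbb-bt had 1 read with the same 4-base extension, at 103813774 in replicate 1. In Hbb-bs of replicate 2, 2 further reads left exon 1 before the 4 bases in capitals, at 103827788. An exon 1 that is 4 bases longer was therefore found in both beta genes, at 1 or 2 reads in any library. Whether the transcripts or errors in the reads or their alignment place these ends was not tested.

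A few reads began upstream of the usual start. In replicate 1, 1 Hbb-bs read used an annotated upstream exon of a rarer form (chr7:103828012-103828096). In replicate 2, 1 Hbb-bt read used an unannotated exon at chr7:103815693-103815779. Also in replicate 1, 1 read assigned to Hba-a2 began in Hba-a1 (chr11:32284128-32284325) and was joined to position 32296753 in exon 2 of Hba-a2, so that a single model spans both copies. A model across near-identical copies can also arise in alignment, which was not tested.

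For Slc4a1 the question is what a count of 0 means at this depth. Its leading annotated transcript has 20 exons and 4545 bases, far longer than the globins. Of the tested genes, 896 (11.0%) had a leading transcript at least as long, with 20478 and 20467 reads of all classes in sum. Tested genes were those with at least 10 reads, so their reads cannot tell what a count of 0 means. The part of transcript length in the count of 0 was not tested. Within 50 kilobases 3 of 5 other genes had reads, with 258 and 238 for Slc25a39, a mitochondrial carrier, 54 and 44 for Ubtf, a factor of ribosomal RNA transcription, and 28 and 30 for Rundc3a. The noncoding Bloodlinc, the closest of the 5, and the microRNA gene Mir6930 had none. Slc4a1 was not detected at this depth.

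Reads of other genes near the members were also counted. Within 50 kilobases of the 6 genes the annotation holds 20 other genes, of which 5 had reads. The share with reads over the whole annotation was not computed, so this count is not read as a trait of these loci. Around the beta genes none had any. Near the alpha genes Nprl3, a regulator of nutrient signalling whose introns hold known alpha-globin enhancers, had 35 and 30 reads. Near Bpgm the pseudogene Gm13857 had 10 reads in replicate 1 and none in replicate 2. A single antisense read of replicate 2 lay at chr6:34476356-34478574, minus strand. It was opposite the end of the first exon and the start of the first intron of the Bpgm form with reads. No unannotated model overlapped Slc4a1.

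Other alpha and beta globin genes and pseudogenes had no reads: all 10 annotated members of the list, the embryonic Hba-x and Hbb-y among them, were at 0 in both libraries. Of the 4 globins outside the alpha and beta families, the widely expressed cytoglobin gene Cygb had 17 reads in each library and the neuronal Ngb 1 in each. Mb, the muscle oxygen store, and Adgb had none. Globin reads in the gland were thus assigned almost wholly to the 4 adult genes of the annotation. Hbb-b1 and Hbb-b2, also on the list, were not matched by name and are given no value.

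Red cell markers other than globins were scarce. Of the marker genes, the 4 globins and Alas2, the erythroid first enzyme of haem synthesis, had reads in both libraries. Slc4a1 and the band 3 partner Epb42 were at 0 in both, and Car1, a red cell carbonic anhydrase, had 0 and 2 reads. Without the globins these markers summed to 26 reads in replicate 1 and 8 in replicate 2, against 2181 and 1864 with them. The marker reads were thus nearly all globin reads.

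Of 22 genes of the red cell membrane and its skeleton, 11 had reads. Of these, 6 were tested and none was called, against 3.16% of all tested genes. The list was led by genes that many other cells use: Cd59a, an inhibitor of complement (85 and 94 reads), Cd47, a signal to phagocytes (46 and 60), and the water channel Aqp1 (52 and 43). Of 17 annotated genes of the reticulocyte and red cell cytosol 14 had reads. Of these, 11 were tested and none was called, against the same 3.16%. Prdx2, a peroxide-reducing enzyme (497 and 470 reads), Bsg, a partner of lactate carriers (495 and 468), and Slc25a39 led it. The erythroid genes Hemgn, Trim10 and Trim58 were at 0 in both libraries. Ahsp was not matched by name and is given no value.

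All 12 genes of haem synthesis and iron entry had reads. Of the 9 tested, 3 were called and all 3 were higher in replicate 1, where 1.71% of all tested genes were called in that direction. Alas1, the first enzyme of haem synthesis outside red cells, had 1593 and 317 reads (5.14-fold, exact conditional interval 4.56 to 5.82, adjusted p = 2.65e-207 by Fisher's exact test). Alas2 had 26 and 6 (4.44-fold, 1.79 to 13.2, adjusted p = 0.00700), and Ppox, a late enzyme of the path, 34 and 13 (2.68-fold, 1.38 to 5.53, adjusted p = 0.0329). The interval of Alas2 lay above those of all 4 globins, whose ratios in the same direction were 1.06-fold for Hbb-bs to 1.27-fold for Hba-a1, with upper bounds of 1.19 for Hbb-bs to 1.47 for Hbb-bt. The other most abundant genes of the list were Alad (74 and 81 reads) and Urod (57 and 48), and neither was called.

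Among 8 genes around bisphosphoglycerate and lower glycolysis, the pathway from which Bpgm branches, 6 had reads. None of the 6 tested was called, against 3.16% of all tested genes. Pgam1, the related phosphoglycerate mutase, had 633 and 470 reads, Eno1, an enolase, 500 and 507, and Pgk1, the kinase just before it, 132 and 136. Hk1, a hexokinase, had 17 and 8, and Gapdh, which has many near-identical pseudogenes, 11 and 11. Bpgm, with 15 and 15 reads, was below the first 3 and near the last 2. Pgam1 was 1.38-fold higher in replicate 1 (1.22 to 1.56, adjusted p = 5.92e-06 by Fisher's exact test), again past the p but not the size. The muscle mutase Pgam2 and the red cell and liver pyruvate kinase Pklr had no reads.

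Erythroid transcription factors were at most at a low level. Of 11 genes, 7 had reads, 4 were tested and none was called, against 3.16% of all tested genes. The most abundant were Zbtb7a (20 and 23 reads), Ldb1 (19 and 23) and Lmo2 (15 and 16), which other cells also express. Gata1 and Klf1, the factors that define red cell precursors, were at 0 in both libraries, as were Nfe2 and Gfi1b. Tal1 and Epor, the receptor for erythropoietin, had 1 read each in both libraries, and Zfpm1, a partner of Gata1, had 4 and 11.

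Genes that clear free haemoglobin and haem were seen, all 6 of them, of which 4 were tested and 1 was called. Hp, which encodes haptoglobin, had 175 and 191 reads, the haem oxygenase gene Hmox1 42 and 39, and the biliverdin reductase gene Blvra 20 and 15. Hpx, which encodes the haem carrier haemopexin, had no read in replicate 1 and 10 in replicate 2 and was called higher in replicate 2 (adjusted p = 0.0337 by Fisher's exact test), where 1.45% of all tested genes were called in that direction. Liver genes were also higher there, at 6 and 287 reads over the list of 10, with Apoa2 at 0 and 46. Their part in the Hpx difference was not tested.

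Slc4a1 has relatives that carry bicarbonate in other tissues. Of 9 such genes 6 had reads, led by Slc4a3 (37 and 45) and Slc4a2 (26 and 22). Neither was called, against 3.16% of all tested genes. Slc4a1 is also used by intercalated cells of the kidney, an organ next to the adrenal. Of 7 kidney genes, Aqp2 had 8 and 2 reads, Slc26a4 5 and 3, and the other 5 had none.

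Markers of platelets, neutrophils and lymphocytes had few reads. Platelet genes summed to 13 and 7 reads over 9 genes, led by Pf4 (8 and 6), Itga2b (3 and 1) and Gp1bb (2 and 0), with 6 genes at 0. Neutrophil genes summed to 1 and 2 reads over 10 genes, from Retnlg (1 and 0), Camp (0 and 1) and S100a9 (0 and 1), with 7 at 0. Lymphocyte genes summed to 15 and 15 reads over 10 genes, of which Ighm, the heavy chain of IgM, gave 15 and 13, Cd79a and Cd79b each gave 0 and 1, and 7 were at 0. These counts limit the transcripts and not the share of cells.

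**Figure D5:**
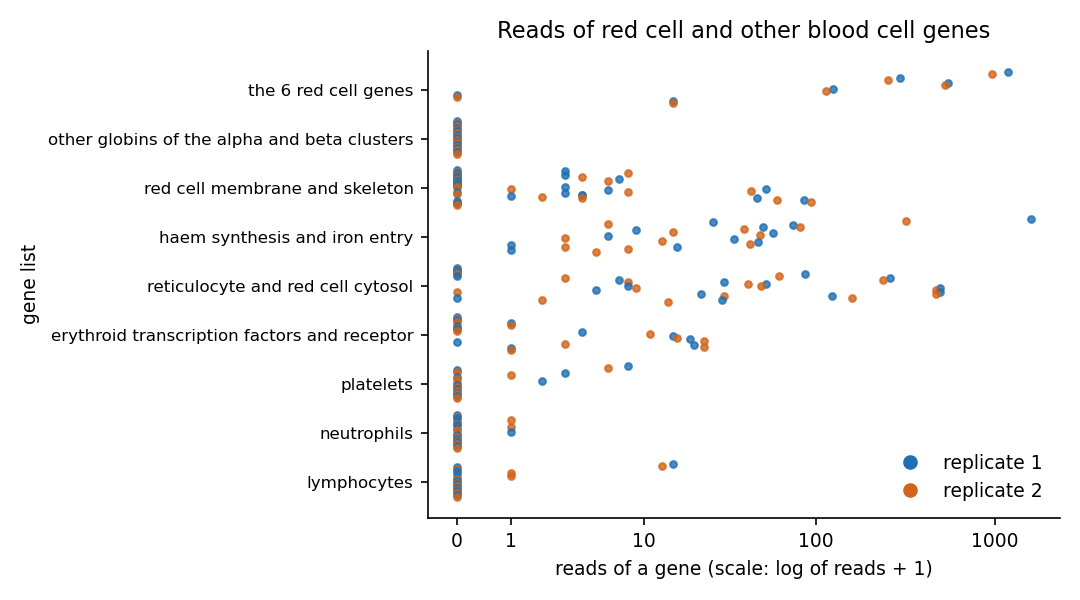
Reads of each gene in each library, on a scale of the log of reads plus 1, for the 6 red cell genes and for lists of red cell, platelet and white cell genes. The globins reach 1190 reads and Alas1 of the haem list 1593. The other annotated alpha and beta globin genes and pseudogenes are all at 0, and no platelet, neutrophil or lymphocyte gene exceeds 15.

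The genes closest in level to the alpha sum over the 2 libraries, by Euclidean distance of log2(CPM + 1), were Fads2 (1348 and 1241 reads, distance 0.14), Srd5a2 (1404 and 1337, distance 0.16) and Ubb (1403 and 1045, distance 0.23). Those closest to the beta sum were Pkm (650 and 656, distance 0.06), Itm2b (657 and 598, distance 0.11) and Ppia (630 and 701, distance 0.16). These are, in turn, a fatty acid desaturase, a steroid reductase, a ubiquitin, a pyruvate kinase, a membrane protein and a cyclophilin. With 2 libraries the measure places genes of like level and says nothing of shared control.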

How the data were processed

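Total RNA of adrenal gland, per the labels, was sequenced as long reads. Per the file headers, the authors deposited whole read counts per transcript model with TALON classes, on mm10 with GENCODE M21. No version of the aligner or of TALON was found in the labels or headers. Label fields disagree on whether the 2 libraries come from separate animals. The p-values cover counting error only and measure neither technical nor biological spread.

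Counts were summed per gene over all classes and divided by endogenous reads, with spike-in reads (5512 and 15792) left out. Fisher's exact test, two-sided, with Benjamini-Hochberg adjustment compared the libraries over genes with at least 10 reads (scipy 1.17.1, Python 3.11.15). It was checked on simulated counts that held counting error alone, so the check does not cover any further spread between libraries. edgeR 4.0.16 and DESeq2 1.42.0 gave scaling factors as alternatives only. Sequences were read from the M21 transcripts and RefSeq.

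The members and lists were chosen with earlier results of these data known. TATAA was added after the windows had been seen. Named genes were the members, the 3 most abundant and any called genes of each list, genes with reads within 50 kilobases, and the 3 nearest in level. Transcript models of a single read were named after they had been seen. Some marker genes of the lists are not reported here by name.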

Additional observations from a re-analysis of the deposited data

How the results depend on the processing

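No paired analysis was possible because there is 1 group. The globin sum was 5238 CPM over full-length reads (those of the Known, NIC or NNC class) and 5701 CPM over Known reads alone, in place of 4385 CPM, since the total then holds only those reads as well. Leaving out each library in turn gave 4007 to 4763 CPM, an alpha to beta ratio of 1.89 to 2.21, an Hba-a1 share of 79.2% to 80.2%, an Hbb-bs share of 81.4% to 82.4% and a Known share of 96.6% to 97.1%. The adjusted p of the alpha to beta difference was 0.0533 over full-length classes and 0.0575 over Known reads by Fisher's exact test. Between 212 and 258 genes were called under the other settings. With TMM factors 140 were higher in replicate 2 and 114 in replicate 1, against 118 and 139 with library totals. No member was called under any of them. The log2 ratio of Bpgm was 0.03 with TMM factors, 0 with DESeq2 size factors and 0.14 over full-length classes, against -0.03. The 4 globins kept their sign under all settings run, but Hbb-bs came to -0.01 with TMM factors (adjusted p = 1 by Fisher's exact test) from -0.08, and Hbb-bt to -0.06 over full-length reads from -0.18. With the listed pancreas, liver and brown fat genes left out of the totals, a setting chosen after seeing the data, the globin sum was 4420 CPM. Depth limits what can be said of Slc4a1 and the other genes at 0, and the alpha copies differ at 1 annotated base over their shared length.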
